A study of Mus musculus with 12 samples.

Results

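The genes described are 10 genes of the adipocyte lineage in mouse mesenchymal stem cells (MSCs): *Pparg*, *Cebpa*, *Cebpb*, *Cebpd*, *Lpl*, *Fabp4*, *Cd36*, *Plin2*, *Adipoq* and *Zfp423*. They were found by gene name among the 55401 genes of the deposited table, and each name had 1 row. Of the 10 genes, 6 passed a filter on low values, which asked for an FPKM (fragments per kilobase of exon, scaled to the mapped fragments of the library) of 1 or more in 3 or more libraries and left 12016 genes of the table. The 4 genes under the filter were *Fabp4*, *Cd36*, *Zfp423* and *Adipoq*, and *Adipoq* had no count in any library. With TGF-β1, the mRNA of *Pparg*, *Cebpd* and *Lpl* was lower and that of *Plin2* higher than in control MSCs. With supernatant of myeloid cells added, *Lpl* rose partly back, and none of the other 5 genes that passed the filter was called against TGF-β1 alone.

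Marrow MSCs can become adipocytes, bone cells or matrix-producing myofibroblasts. Entry into the adipocyte path is known to begin with the transcription factors C/EBPβ and C/EBPδ, which induce PPARγ and C/EBPα, and these 2 keep each other on and switch on the genes for taking up, carrying and storing fat. TGF-β signalling, which acts through SMAD proteins, is a known brake on this path.

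The study cultured MSCs of C57BL/6 mice, bought from a commercial supplier, so that all libraries go back to 1 source of cells. Control MSCs (Control) had no TGF-β1, the second group (TGFb1) received TGF-β1 at 5 ng/mL for a day, and the other groups received the same TGF-β1 in the culture supernatant of monocytic (TGFb1_M) or granulocytic (TGFb1_G) myeloid-derived suppressor cells (MDSCs), which had been grown from bone marrow with cytokines and sorted by flow cytometry. No group had supernatant without TGF-β1, so an action of the supernatant on the MSCs and an action on TGF-β1 cannot be told apart. Each group has 3 mRNA libraries. The sources do not say whether replicates were separate cultures, so p-values measure the spread between libraries, which may be technical.

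The libraries held from 73977669 to 84565450 counts. Of the markers that go with the MSC label, *Itgb1* (CD29), *Cd44* and *Ly6a* (Sca-1) had control means of 254, 39.5 and 245 FPKM, while *Pecam1* of endothelial cells was at 0.0838 FPKM. *Ly6a* itself differed between the groups, with means of 16.2 FPKM in TGFb1, 92.5 in TGFb1_M and 66.9 in TGFb1_G. Of 10 mature adipocyte markers, 0 reached a mean of 1 FPKM without supernatant, and *Adipoq*, *Cidec*, *Lep*, *Cfd* and *Pck1* were at 0 in all 6 of those libraries. With supernatant only *Pck1*, a gene also used by liver and kidney, reached it, with means of 3.09 FPKM in TGFb1_M and 4.73 in TGFb1_G. The libraries with supernatant stood apart in genes of other tissues. *Kap*, a gene of kidney tubules, had no count without supernatant, but 773, 537 and 4246 counts in TGFb1_M and 2474, 3185 and 3010 in TGFb1_G. *Alb*, the liver gene for serum albumin, had no count in the 8 libraries of Control, TGFb1 and TGFb1_M replicates 1 and 2, but 6423 counts in TGFb1_M replicate 3 and 7588, 7039 and 7827 in TGFb1_G. All 14 kidney tubule markers were detected in TGFb1_M and in TGFb1_G, with summed levels of 37.1 to 109 and 73.2 to 84.5 FPKM. The sum was 29.3 to 30.9 FPKM in Control, where 7 of the 14 markers, *Kap*, *Slc34a1* and *Umod* among them, were at 0, and 4.72 to 4.85 FPKM in TGFb1. The 8 liver markers summed to 0.0989 to 0.437 FPKM in the 8 libraries without *Alb* and to 58.0 to 68.5 FPKM in the others. The TGFb1_M results for *Lpl*, *Cebpa*, *Fabp4* and *Cd36* are therefore also given without replicate 3.

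The starts of 3 members are shown because these members moved in different ways: *Pparg* fell, *Plin2* rose and *Cd36* was counted only with supernatant. RefSeq gave upstream sequence (GRCm38.p6) for 7 of the 10 members, and for *Cebpd*, *Lpl* and *Fabp4* none was matched. Each line below holds the 250 bases before a start site, 5′ to 3′ on the gene's own strand, and capitals mark matches on either strand to 5 motifs: the SMAD box CAGAC, the C/EBP motif TTGCNNAA, the nuclear receptor motif AGGTCA, the AP-1 motif TGANTCA and the E-box CACGTG. Of 3 *Pparg* starts, the one farthest downstream, at the head of the fat-selective isoform, is shown, at chr6:115421816-115422065 on the plus strand. The *Plin2* window is chr4:86670060-86670309 and the *Cd36* window is chr5:17835897-17836146, both on the minus strand.
Pparg (downstream start): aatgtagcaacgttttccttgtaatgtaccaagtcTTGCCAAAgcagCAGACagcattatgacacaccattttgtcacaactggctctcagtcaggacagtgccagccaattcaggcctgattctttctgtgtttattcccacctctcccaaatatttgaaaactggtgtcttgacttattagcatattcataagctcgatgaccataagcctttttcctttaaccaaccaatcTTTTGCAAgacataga
Plin2: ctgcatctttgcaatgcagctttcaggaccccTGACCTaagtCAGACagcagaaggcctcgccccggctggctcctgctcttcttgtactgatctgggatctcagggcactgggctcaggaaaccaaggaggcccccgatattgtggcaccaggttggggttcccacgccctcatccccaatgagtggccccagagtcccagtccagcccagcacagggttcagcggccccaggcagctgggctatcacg
Cd36: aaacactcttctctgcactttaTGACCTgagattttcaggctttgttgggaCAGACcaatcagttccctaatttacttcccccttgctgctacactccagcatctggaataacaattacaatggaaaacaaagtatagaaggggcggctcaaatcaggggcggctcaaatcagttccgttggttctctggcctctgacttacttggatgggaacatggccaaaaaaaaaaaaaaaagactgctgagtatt

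The *Pparg* window held 2 C/EBP matches and 1 SMAD box. The *Plin2* and *Cd36* windows each held 1 SMAD box and 1 nuclear receptor motif, and no matches overlapped. Among 32817 windows of the same length in the RefSeq table, 42.2% held the SMAD box, 14.0% the nuclear receptor motif, 9.57% the C/EBP motif, 6.75% the AP-1 motif and 6.02% the E-box. The windows of the other 2 *Pparg* starts held no SMAD box and no C/EBP match, and 1 nuclear receptor motif each. The counts are per gene and do not separate the *Pparg* starts.

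The first comparison, TGFb1 against Control, addresses what TGF-β1 does to the MSCs. Of the 6 members that passed the filter, 4 were called at an adjusted p under 0.05, against 34.0% of all genes tested. Of these, 1 was higher and 3 lower, against 16.1% and 17.9% of all genes tested. The median log2 fold change of the 6 was -0.899, against 0.000478 over all genes tested.

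*Pparg* (ENSMUSG00000000440, GRCm38 chromosome 6, 115360951 to 115490399) codes for PPARγ, the nuclear receptor that adipocyte formation requires. Its FPKM was 5.39, 6.24 and 5.48 in Control and 1.62, 1.61 and 1.69 in TGFb1. All TGFb1 libraries lay below all Control libraries, and the groups did not overlap. The level fell to 0.300 of that in Control, a log2 fold change of -1.74 ± 0.09 (SE; adjusted p = 1.52e-07, edgeR's quasi-likelihood test).

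*Cebpd* (ENSMUSG00000071637, chromosome 16, 15887286 to 15891031) codes for the early factor C/EBPδ. Its FPKM was 4.94, 5.48 and 5.83 in Control and 1.07, 1.05 and 0.836 in TGFb1. This was the largest fall among the 6 members, with a log2 fold change of -2.40 ± 0.14 (SE; adjusted p = 2.48e-07). Of its 3746 exon bases, 562 are shared with exons of *Spidr* on the other strand, whose counts were 1748 to 2159 in Control and 1650 to 1791 in TGFb1.

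*Cebpb* (ENSMUSG00000056501, chromosome 2, 167688915 to 167690418), for the other early factor C/EBPβ, had the highest level of the 10 members in every group. Its FPKM was 30.7, 38.9 and 42.4 in Control and 32.4, 35.1 and 35.4 in TGFb1, and the TGFb1 values lay within the Control range. The log2 fold change was -0.06 with a 95% interval from -0.35 to 0.222 (adjusted p = 0.744). A stretch of 312 of its 1504 exon bases is shared with *Tmem189* on the other strand, whose counts were 2255 to 2838 in Control and 3489 to 3897 in TGFb1. The libraries mark strand, but whether the counting used it is not stated, so reads of such pairs may not be told apart.

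*Cebpa* (ENSMUSG00000034957, chromosome 7, 35119293 to 35121928), for the late factor C/EBPα that acts with PPARγ, was at 1.82, 1.98 and 1.94 FPKM in Control and at 1.50, 1.99 and 1.96 in TGFb1. The groups overlapped, and the log2 fold change of -0.01 had an interval from -0.406 to 0.377 (adjusted p = 0.964). Only 51 of its 2636 exon bases are shared with another gene, *Gm45091*, which had at most 20 counts. A change of *Cebpa* within this interval was not detectable, and a fall of the size of that of *Pparg* lies outside it.

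*Zfp423* (ENSMUSG00000045333, chromosome 8, 87661810 to 87959595), a zinc finger factor of preadipocyte commitment, was low throughout. Its counts were 152, 122 and 164 in Control and 135, 88 and 84 in TGFb1. These ranges overlapped. In the fit of all 28622 genes with a count, used for the members under the filter, its log2 fold change was -0.47 ± 0.24 (SE; adjusted p = 0.292).

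*Lpl* (ENSMUSG00000015568, chromosome 8, 68880491 to 68906934) codes for lipoprotein lipase, which frees fatty acids from circulating fat for uptake. It was at 10.8, 10.5 and 10.6 FPKM in Control and at 3.29, 3.10 and 2.81 in TGFb1. No TGFb1 library came near a Control library. The fall was close to that of *Pparg*, with a log2 fold change of -1.73 ± 0.08 (SE; adjusted p = 4.75e-08).

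*Plin2* (ENSMUSG00000028494, chromosome 4, 86648386 to 86670060) codes for perilipin 2, which coats lipid droplets in many cell types besides adipocytes. Its FPKM was 5.67, 5.73 and 5.49 in Control and 16.5, 18.5 and 17.8 in TGFb1. It was the only one of the 6 to rise, to 3.25 times the Control level, with a log2 fold change of 1.70 ± 0.06 (SE; adjusted p = 1.19e-08).

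*Fabp4* (ENSMUSG00000062515, chromosome 3, 10204088 to 10208576), for the fatty acid carrier of adipocytes and a classic PPARγ target, had few counts. They were 96, 171 and 115 in Control and 11, 31 and 18 in TGFb1, so the groups did not overlap. The log2 fold change was -2.60 ± 0.48 (SE; adjusted p = 0.00273 in the fit of all genes with a count, of which 14.6% were called). *Cd36* (ENSMUSG00000002944, chromosome 5, 17781690 to 17888801), for a fatty acid transporter, had 0 counts in all 6 libraries of Control and TGFb1, and *Adipoq* (ENSMUSG00000022878, chromosome 16, 23146536 to 23158028), for the adipocyte hormone adiponectin, had 0 in all 12. A count of 0 allows up to 3 counts per library, for counting error only, or 12 if each fragment weighs 4 counts, since low counts piled up at multiples of 4.

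**Figure D1:**
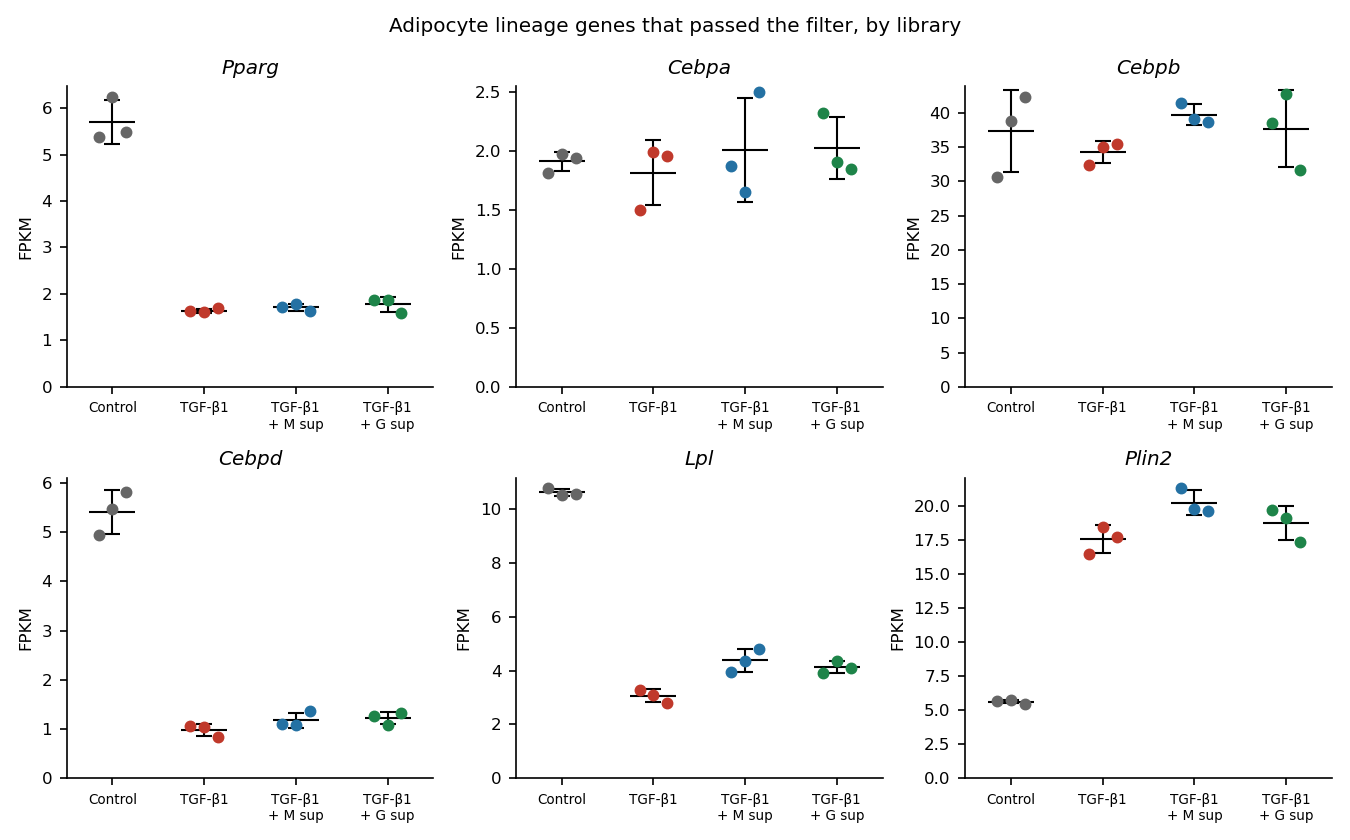
FPKM of the 6 adipocyte lineage genes that passed the filter, in the 3 libraries of each group (points, replicates 1 to 3 from left to right), with the mean (bar) and SD (whiskers). *Pparg*, *Cebpd* and *Lpl* lie highest in Control, *Plin2* lies lowest there, *Cebpa* overlaps between all groups, and the *Cebpb* values of each group overlap with those of Control.

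The next comparisons, TGFb1_M and TGFb1_G against TGFb1, ask what the supernatants add to TGF-β1. They share the TGFb1 libraries. *Lpl* was the only called member in either, 1 of 6 in each, against 4.78% of genes tested for TGFb1_M and 5.56% for TGFb1_G. The median log2 fold changes of the 6 members were 0.187 and 0.12, against -0.0133 and -0.0144 over all genes tested. All TGFb1_M libraries lay above all TGFb1 libraries for 4 of the 6 members (*Lpl*, *Cebpd*, *Cebpb* and *Plin2*), against 13.6% of genes tested, and all TGFb1_G libraries for 2 (*Lpl* and *Cebpd*), against 13.3%.

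*Lpl* was at 3.96, 4.38 and 4.81 FPKM in TGFb1_M and at 3.93, 4.37 and 4.09 in TGFb1_G, against 2.81 to 3.29 in TGFb1. Every library with supernatant lay above every library with TGF-β1 alone and below every Control library. The log2 fold change was 0.49 ± 0.08 for TGFb1_M (SE; adjusted p = 0.00341) and 0.40 ± 0.08 for TGFb1_G (SE; adjusted p = 0.0103). On the log2 scale 28.3% and 23.2% of the fall with TGF-β1 was undone. Neither rise reached 2-fold, so the study's rule of a fold above 2 or below 0.5 with an unadjusted p under 0.05 calls 0 of 6 members in both comparisons, against 2.18% and 2.17% of genes tested. Without TGFb1_M replicate 3, the library with *Alb*, the log2 fold change was 0.42 (adjusted p = 0.0129). The other TGFb1_M libraries still held 773 and 537 counts of *Kap*, and all TGFb1_G libraries held both *Alb* and *Kap*. The part of RNA from other tissues in the *Lpl* rise was not tested. Over all alternatives the adjusted p of *Lpl* ran from 2.83e-07 to 0.045 for TGFb1_M and from 5.11e-05 to 0.0455 for TGFb1_G.

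*Pparg* was at 1.73, 1.77 and 1.63 FPKM in TGFb1_M and at 1.87, 1.87 and 1.58 in TGFb1_G, overlapping with TGFb1. Its log2 fold changes were 0.04 (interval -0.17 to 0.247) and 0.09 (interval -0.121 to 0.296), so a rise as large as that of *Lpl* in the same comparison lies outside the interval. *Cebpd* was at 1.10, 1.09 and 1.36 FPKM in TGFb1_M and at 1.26, 1.09 and 1.33 in TGFb1_G. All 6 values lay above the 3 TGFb1 values, but the log2 fold changes of 0.24 (interval -0.062 to 0.542, adjusted p = 0.401) and 0.29 (interval -0.013 to 0.589, adjusted p = 0.294) did not pass.

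*Plin2* was at 21.3, 19.8 and 19.7 FPKM in TGFb1_M and at 19.7, 19.2 and 17.4 in TGFb1_G. Its log2 fold changes of 0.18 (adjusted p = 0.153) and 0.07 (adjusted p = 0.674) pointed away from Control and did not pass. *Cebpb* was at 41.5, 39.1 and 38.7 FPKM and at 38.5, 42.8 and 31.7, with log2 fold changes of 0.19 (adjusted p = 0.492) and 0.11 (adjusted p = 0.753). *Cebpa* was at 1.87, 1.66 and 2.50 FPKM in TGFb1_M and at 2.33, 1.91 and 1.85 in TGFb1_G, with adjusted p of 0.794 and 0.791. The highest *Cebpa* value was that of TGFb1_M replicate 3, and without that library the log2 fold change for TGFb1_M went from 0.12 to -0.07. The *Zfp423* counts were 127, 91 and 93 in TGFb1_M and 102, 105 and 103 in TGFb1_G, which overlapped with TGFb1 (adjusted p = 0.985 and 1.0).

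**Figure D2:**
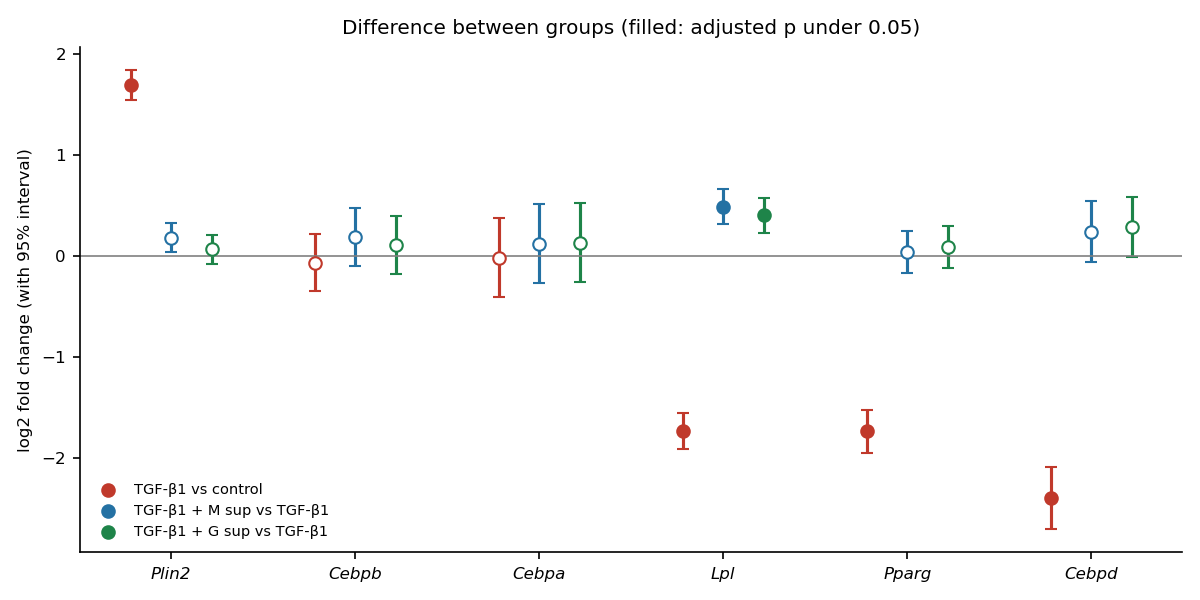
Log2 fold change of the 6 members with its 95% interval for TGF-β1 against control (red) and for each supernatant with TGF-β1 against TGF-β1 alone (blue, M; green, G), with filled points at an adjusted p under 0.05. *Lpl* is the only member with filled points in all 3 comparisons, at -1.73, 0.49 and 0.40.

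*Fabp4* and *Cd36* were highest, among the libraries with TGF-β1, in those that also held *Alb*. *Fabp4* had 15, 16 and 44 counts in TGFb1_M and 53, 57 and 46 in TGFb1_G, against 11 to 31 in TGFb1. Its log2 fold changes were 0.39 (adjusted p = 0.832) and 1.35 (adjusted p = 0.239), and without TGFb1_M replicate 3 the first was -0.25 (adjusted p = 0.985, over all alternatives 0.692 to 1.0). Neither difference passed.

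*Cd36* had 19, 0 and 55 counts in TGFb1_M and 58, 45 and 81 in TGFb1_G. With 3 counts per library as the floor for the groups at 0, its mean level was at least 8.64-fold higher in TGFb1_M and at least 20.3-fold higher in TGFb1_G than in TGFb1. With a floor of 12 counts these bounds were 2.16-fold and 5.08-fold. Without TGFb1_M replicate 3 the bound for TGFb1_M was 3.43-fold at the floor of 3 counts, and at 12 counts its mean lay under the floor, so that no fold can be given. *Cd36* was at 0 in TGFb1 and Control and entered the fit only through its counts with supernatant. No test of it against these groups is therefore given, and the fold bounds only describe the libraries at hand. *Cd36* was counted in every TGFb1_G library and in TGFb1_M replicates 1 and 3. *Cd36* is also made by macrophages and by liver and kidney cells. The defining leukocyte marker *Ptprc* (CD45) was at or near 0 in all libraries, with at most 26 counts, and *Lyz2* of myeloid cells had 71 to 262 counts in TGFb1_M and 185 to 262 in TGFb1_G, against at most 23 in the other groups. The 14 myeloid markers summed to 4.37 to 7.28 FPKM in TGFb1_M and 6.23 to 8.87 in TGFb1_G, against 6.20 to 7.30 in Control and 2.27 to 3.21 in TGFb1. Of the 14, 5 had no count in Control and 5 none in TGFb1, against 1 in TGFb1_M and 0 in TGFb1_G. The part of RNA from other cells or tissues in the *Cd36* and *Fabp4* counts was not tested. In bulk libraries, a few cells or fragments rich in a transcript and a low level in all cells cannot be told apart.

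**Figure D3:**
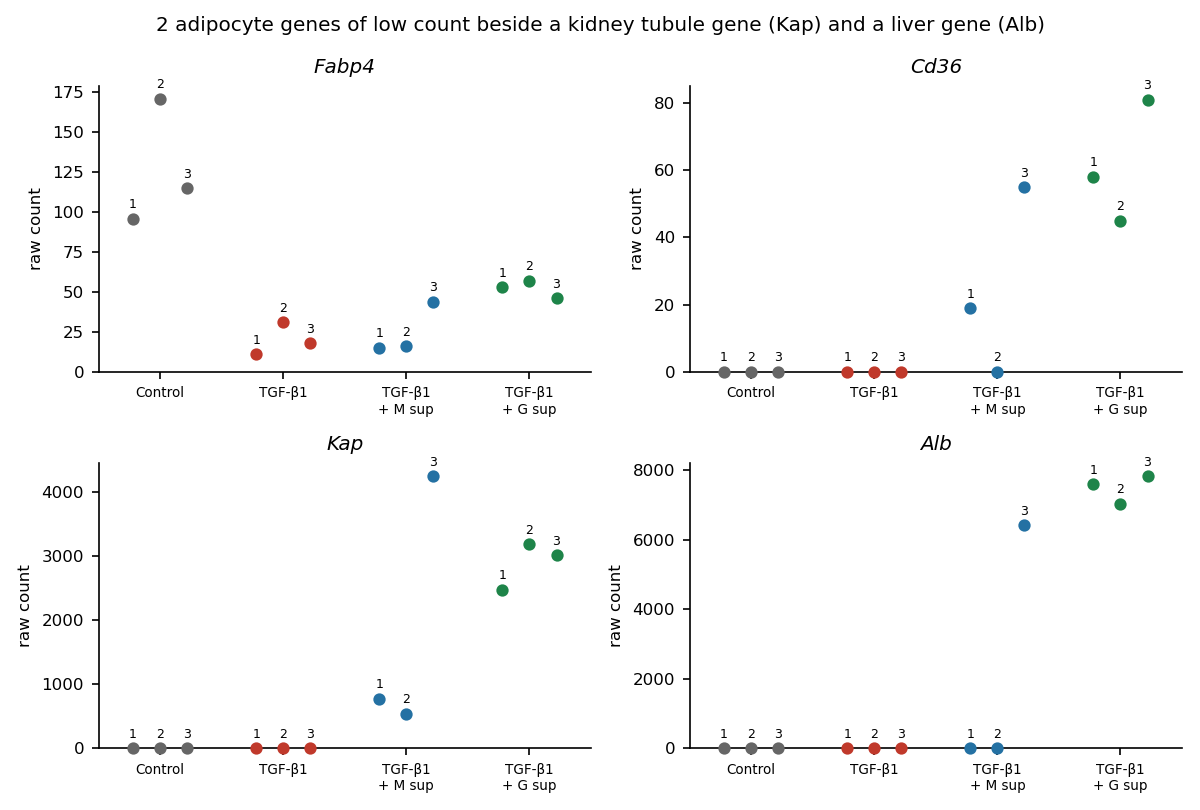
Raw counts of *Fabp4* and *Cd36* beside *Kap* (kidney tubule) and *Alb* (liver) in the 12 libraries, with the replicate number above each point. *Cd36* has counts only in libraries that hold *Kap*, and its 4 highest values and those of *Alb* fall in TGFb1_M replicate 3 and the 3 libraries of TGFb1_G.

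TGFb1_M and TGFb1_G were then compared with each other, which asks whether the source of the supernatant matters. Of the 6 members, 0 were called by edgeR, DESeq2 or limma, against 0.125%, 1.01% and 0.325% of all genes tested. By edgeR, 0 had an unadjusted p under 0.05, against 6.33% of all genes tested. With shares this low, 0 of 6 says little about these members. The log2 fold changes, TGFb1_M over TGFb1_G, ran from -0.05 for *Pparg* to 0.12 for *Plin2*. For *Lpl* the difference was 0.09, with an interval from -0.088 to 0.263, so differences within this interval were not resolved with 3 libraries a group. For *Fabp4* it was -0.96 ± 0.46 (SE; adjusted p = 0.809), and for *Cd36* -1.22 ± 1.18 (SE; adjusted p = 0.907). Without TGFb1_M replicate 3 these were -1.60 ± 0.44 (adjusted p = 0.477) and -2.54 ± 1.36 (adjusted p = 0.893).

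Against Control, *Pparg*, *Cebpd*, *Lpl* and *Plin2* had the same direction in both supernatant groups as with TGF-β1 alone. Of the 6 members these 4 were called in TGFb1_M and in TGFb1_G, against 35.2% and 34.8% of genes tested, and these comparisons share the Control libraries. In each, 1 was higher, against 16.4% of genes tested, and 3 were lower, against 18.9% in TGFb1_M and 18.4% in TGFb1_G. *Pparg* was lower by -1.70 and -1.65, *Cebpd* by -2.16 and -2.11 and *Lpl* by -1.24 and -1.33, while *Plin2* was higher by 1.88 and 1.77, all on the log2 scale with adjusted p of at most 6.46e-07. *Fabp4* was lower in TGFb1_M by -2.21 (adjusted p = 0.00668, with 15.6% of all genes with a count called in each of these comparisons), and by -2.86 without TGFb1_M replicate 3 (adjusted p = 0.00168). In TGFb1_G the difference of -1.25 did not pass (adjusted p = 0.0933), although all 3 libraries lay below Control, and the adjusted p ran from 0.00573 (limma, log2(FPKM + 1)) to 0.286 over the alternatives.

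In order of mean level, *Pparg* stood at 5.70 ± 0.47 FPKM in Control (SD, n = 3), then at 1.77 ± 0.17 in TGFb1_G, 1.71 ± 0.07 in TGFb1_M and 1.64 ± 0.04 in TGFb1, and the last 3 groups overlapped. *Cebpd* had the same order, from 5.42 ± 0.45 FPKM in Control to 1.23, 1.18 and 0.984, and its TGFb1_M and TGFb1_G libraries overlapped with each other but not with TGFb1. *Lpl* fell from 10.6 ± 0.13 FPKM in Control to 4.38 ± 0.43 in TGFb1_M and 4.13 ± 0.23 in TGFb1_G, which overlapped, and to 3.07 ± 0.24 in TGFb1, which did not overlap with either. *Plin2* was at 20.3 ± 0.92 FPKM in TGFb1_M, 18.8 ± 1.2 in TGFb1_G, 17.6 ± 1.0 in TGFb1 and 5.63 ± 0.12 in Control, and only the step to Control separated neighbours. *Cebpa* and *Cebpb* gave group means of 1.82 to 2.03 and 34.3 to 39.8 FPKM, in which no neighbours in the order were separate.

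Other genes of the adipocyte programme were taken from 5 lists of 76 genes, of which 54 passed the filter. Of these, *Stat5a*, *Nr1h3* and *G0s2* reached 1 FPKM in only one of the groups TGFb1 and Control and so passed the filter through the group where they were high, for which reason no test of them is given. Of the other 51 genes 24 were called with TGF-β1, 6 higher and 18 lower, which is 47.1% against 32.5% of all genes tested after the same step. Each of the 6 members reached 1 FPKM in at least 1 library of every group, although the mean of *Cebpd* in TGFb1 was 0.984. Among 10 other activators, 1 rose and 5 fell (60.0% called), with a median log2 fold change of -0.265, and among 11 inhibitors 1 rose and 6 fell (63.6%), with a median of -0.35.

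*Stat5a*, a signal transducer that acts upstream of *Pparg*, was at 1.68 ± 0.10 FPKM in Control and 0.462 ± 0.088 in TGFb1 (SD, n = 3). *Hes1*, a Notch target that represses adipogenic genes, was the inhibitor that rose, from 5.62 ± 0.68 to 22.1 ± 0.90 FPKM (SD, n = 3), a log2 fold change of 2.03 (adjusted p = 2.27e-08). *Klf4* and *Klf5*, Krüppel-like activators, fell by 0.86 and 0.81, and *Klf2* and *Klf3*, inhibitors of the same family, fell by 0.65 and 0.67, all in log2. These lists therefore held lower genes of opposite roles.

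Among 19 genes of lipid uptake and synthesis, 4 rose and 3 fell, with a median of -0.082, and the share called of 36.8% was near the 32.5% of all genes. *Vldlr*, a lipoprotein receptor, rose by a log2 fold change of 0.78 (adjusted p = 0.000521). *Angptl4*, a secreted inhibitor of lipoprotein lipase, fell by 1.44 on the log2 scale (adjusted p = 0.00133), in the same direction as *Lpl*, and *Acsl1*, which activates fatty acids, fell by 0.90 (adjusted p = 0.00322). Among 7 genes of the lipid droplet and lipolysis, 0 rose and 3 fell (42.9% called), with a median of -0.321. *G0s2*, an inhibitor of the lipase ATGL, had 4, 8 and 3 counts in Control and 111, 112 and 134 in TGFb1. *Pnpla2*, the gene of ATGL itself, fell by 0.30. Among 4 adipokines and receptors that passed the filter, the adiponectin receptor *Cdh13*, the 1 called (25.0%), fell by 0.80 (adjusted p = 2.26e-06). These 4 include *Rbp4*, which had no count in Control and at most 6 in TGFb1. It counts as not called here and among the 51 genes above.

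**Figure D4:**
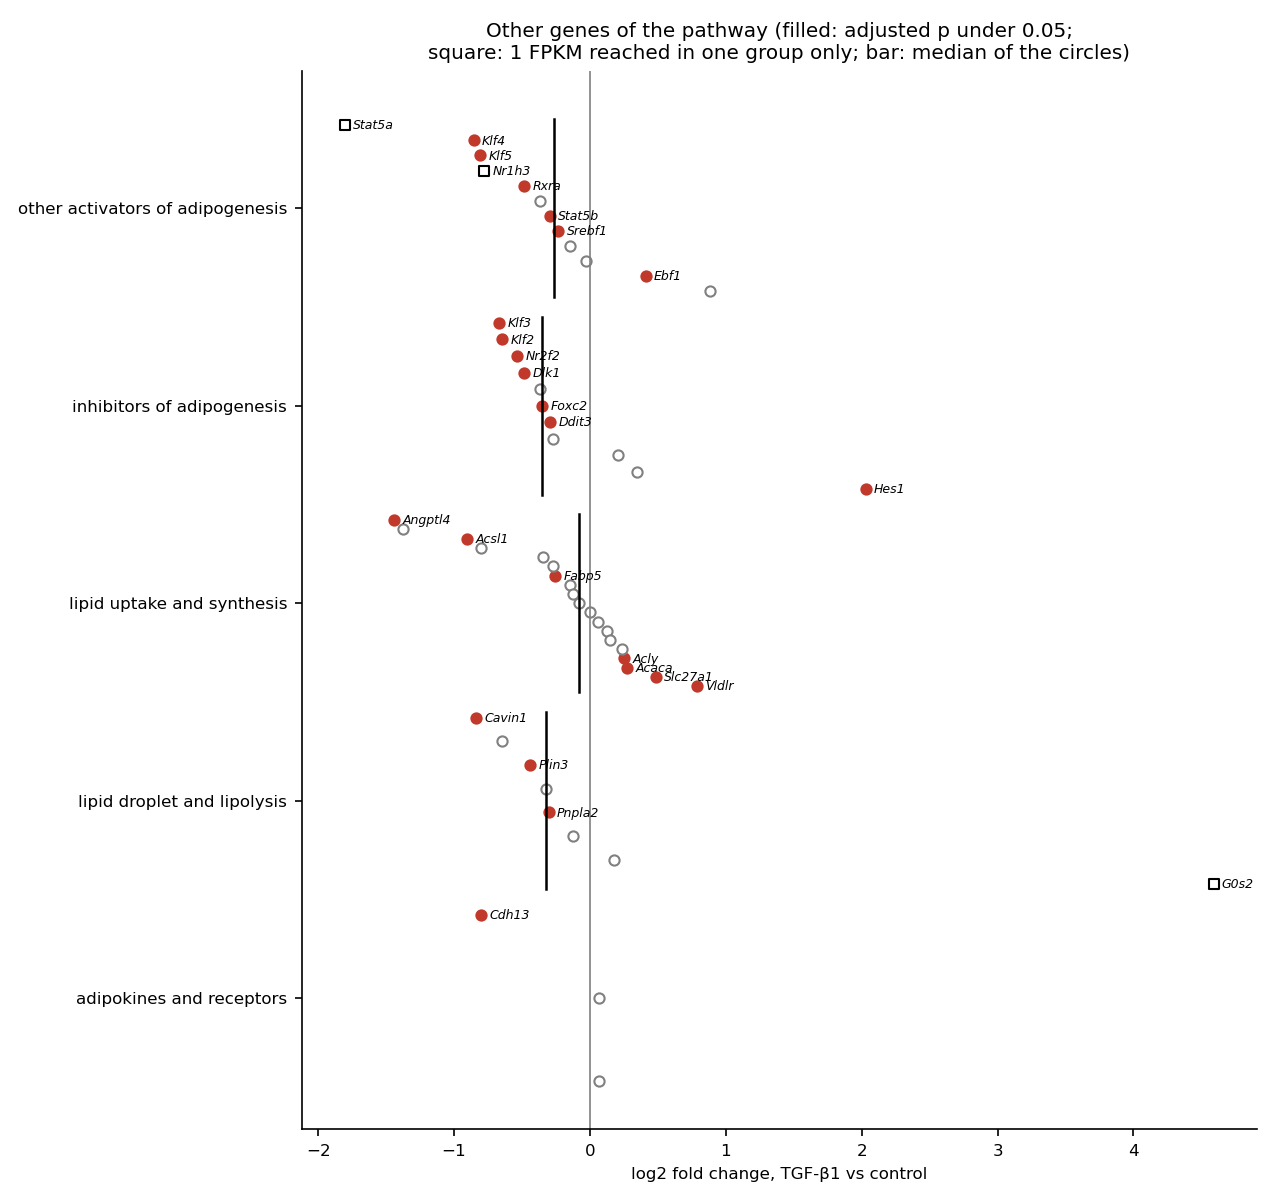
Log2 fold change for TGF-β1 against control of genes in 5 lists, with circles filled and named at an adjusted p under 0.05, squares for the 3 genes that reached 1 FPKM in one of the 2 groups only, and the median of the circles of the 4 larger lists as a bar. *Rbp4*, with no count in Control, is left out. Among the circles *Hes1* at 2.03 lies farthest to the right and *Angptl4* at -1.44 farthest to the left.

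The supernatants changed few of these genes. In TGFb1_M against TGFb1, 2 of 54 were called, or 3.7%, and in TGFb1_G 3 of 54, or 5.56%, shares near those of all genes tested (4.78% and 5.56%). DESeq2 called 4 and 6 of the 54, against 6.94% and 8.27% of all genes, and limma 2 and 5, against 4.49% and 5.61%. *Klf2* rose from 6.99 ± 0.49 FPKM in TGFb1 to 10.8 ± 0.76 in TGFb1_M and 10.5 ± 0.60 in TGFb1_G (SD, n = 3; adjusted p = 0.00132 and 0.00213), and did not pass against Control (adjusted p = 0.688 and 0.419). *Scd1*, which makes monounsaturated fatty acids, fell by 0.35 and 0.30 in log2 (adjusted p = 0.000423 and 0.00137), and *Cavin1*, a coat protein of caveolae, by 0.21 in TGFb1_G (adjusted p = 0.00527). Between TGFb1_M and TGFb1_G 0 of the 54 were called by edgeR, DESeq2 or limma, against 0.125%, 1.01% and 0.325% of all genes, and 4 had an unadjusted p under 0.05 by edgeR, against 6.33%.

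Against Control, 5 of the 54 reached 1 FPKM in only one of the 2 groups in each comparison and are left out. Of the other 49 genes 28 were called in TGFb1_M, 8 higher and 20 lower, and 28 in TGFb1_G, 9 higher and 19 lower, which is 57.1% in each against 33.8% and 33.3% of all genes. *Hes1* (1.82 and 1.76) was again high in log2 and *Cav1* (-1.41 and -1.32), of caveolae, was low. *Angptl4* was lower by -1.25 and -1.16. *Scd2* was called lower in TGFb1_G by -1.88 (adjusted p = 0.038), but its libraries overlapped with those of Control, which had an SD of 66.8 FPKM around a mean of 109. *Rbp4*, for the retinol carrier secreted by liver and fat, had no count in Control, 0, 6 and 4 counts in TGFb1, 0, 0 and 322 in TGFb1_M and 394, 355 and 297 in TGFb1_G. It passed the filter only through the 4 libraries that held *Alb*, so no test of it is given, although it stays among the 54 genes. Its part from other tissue was not tested.

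For each of the 6 members that passed the filter, the 2 tested genes with the most similar pattern of log2(FPKM + 1) over the 12 libraries were sought. Pearson's r describes the 12 libraries, which share the 4 groups, and has no test. For *Pparg* they were *Atoh8* (r = 0.997) and *Aldh2* (r = 0.996), for *Cebpd* they were *Ctps2* and *Aldh1a7* (both r = 0.996), and for *Lpl* they were *Alpl* (r = 0.996) and *Pgr* (r = 0.991). *Alpl*, the bone and stromal alkaline phosphatase, went from 7.37 FPKM in Control to 0.513 in TGFb1, 1.45 in TGFb1_M and 1.40 in TGFb1_G. For *Plin2*, *Gadd45g* (r = 0.995) went from 46.5 FPKM in Control to 141 in TGFb1, 159 in TGFb1_M and 139 in TGFb1_G. The closest genes to the members that were not called had lower r, with *Zwint* (r = 0.875) and *Ndufaf4* (r = 0.843) for *Cebpa* and *Mrpl14* (r = 0.933) and *Actr10* (r = 0.930) for *Cebpb*.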

How the data were processed

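The deposited table gives raw counts per gene and FPKM, both made by the authors, for 12 libraries. Poly(A) RNA was sequenced as strand-marked paired reads, trimmed with cutadapt 1.9, aligned to GRCm38 with HISAT2 2.0.4 and assembled with StringTie 1.3.4d. The tool that made the counts is not given in the sources used here. A count of 0 is listed as an FPKM of 0.0001, and these values were set to 0. Low counts pile up at multiples of 4 (44.3% of nonzero counts up to 12).

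With R 4.3.3, edgeR 4.0.16 scaled the counts by TMM (factors 0.978 to 1.03), fitted all 4 groups together and tested each contrast by its quasi-likelihood method (two-sided), with Benjamini-Hochberg adjustment across 12016 filtered genes. Members under the filter were read from the same fit over all 28622 genes with a count. Intervals are the estimate with its SE times the t quantile on 8 residual degrees of freedom. The edgeR fit was also run on simulated counts of the filtered genes, for TGFb1 against Control only. The simulation had no pile-up at multiples of 4 and no genes under the filter, so it does not bear on these. Named were all members, the 3 highest and 3 lowest called genes of the 5 lists in each comparison, and the 2 genes most like each tested member. A gene that this rule names is not reported here. *Pnpla2*, *Klf3*, *Klf4*, *Klf5*, *Cdh13* and *Nr1h3* were named after their values were seen. Members and lists were chosen with earlier results of these data known. Alternatives used DESeq2 1.42.0, limma 3.58.1, other scalings, filters, pseudocounts (1 and 0.1), counts divided by 4, fits of 2 groups, a replicate block and leaving out each replicate. Gene starts and exons came from GENCODE M21.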

Additional observations from a re-analysis of the deposited data

How the results depend on the processing

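The number of members called was recomputed under every alternative in each of the 6 comparisons, and it stayed at the reported number for the 6 members that passed the filter except under the fold rule of the study, which called 0 in TGFb1_M against TGFb1 and 0 in TGFb1_G against TGFb1. Counting the members under the filter as well was an alternative chosen after seeing the data. It gave 5 calls for TGFb1 against Control, where 14.6% of all genes with a count were called. The added call was *Fabp4*, which was also called in TGFb1_M against Control, where the share was 15.6%. *Cd36*, at 0 in Control and TGFb1, is left out of these counts. Left-out replicates gave 4 calls throughout for the comparisons with Control, 1 for each supernatant against TGFb1 and 0 between supernatants. Replicate numbers did not pair the libraries (mean correlation of same-numbered deviations -0.0038 over 18 pairs), and the replicate block left all 6 counts as they were, with 4 members called for TGFb1 against Control.

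Changes of sign were limited to values that were never called. *Zfp423* in TGFb1_G against TGFb1 was 0.0063 with library totals, 0.0024 and 0.0215 with limma at pseudocounts of 1 and 0.1, and 0.0225 with the replicate block. With replicates left out in turn, *Zfp423* ran from -0.1282 to 0.2338 in that comparison (0.0218 without TGFb1_G replicate 1), from -0.0757 to 0.3546 in TGFb1_M against TGFb1 (-0.0075 without TGFb1 replicate 3) and from -0.0641 to 0.2149 between supernatants. *Fabp4* in TGFb1_M against TGFb1 ran from -0.2535, without TGFb1_M replicate 3, to 0.8452. *Cebpa* ran from -0.0867 to 0.1062 in TGFb1 against Control, from -0.0656 to 0.2433 in TGFb1_M against TGFb1, from -0.0802 to 0.2287 in TGFb1_M against Control and from -0.1964 to 0.1125 between supernatants. *Cebpb* ran from -0.2006 to 0.0356 in TGFb1, from -0.0003 to 0.226 in TGFb1_M and from -0.0791 to 0.1544 in TGFb1_G, each against Control, and from -0.0279 to 0.1816 between supernatants, and *Cebpd* ran from -0.1589 to 0.0139 there. Alternatives for the members under the filter were added after the data were seen. The floor of 12 counts, the fold bounds without TGFb1_M replicate 3, and leaving genes at 1 FPKM in only one group out of the list counts were chosen after seeing the data. With such genes kept, 26 of 54 list genes (48.1%) were called in TGFb1 against Control, where 34.0% of all genes tested were called. In TGFb1_M and TGFb1_G against Control 33 (61.1%) were called in each, where the shares were 35.2% and 34.8%. These calls include genes that passed the filter through the group where they were high. *Stat5a* and *G0s2* were among them throughout, and *Rbp4* in the comparisons with supernatant. The cause of these shifts was not tested.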
